A study of Mus musculus with 29 samples.

Results

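Genes of the sodium-potassium ATPase complex were followed through 29 TRAP-RNAseq libraries of mouse brain. The 6 genes were the FXYD regulators Fxyd1, Fxyd6 and Fxyd7 and the β subunits Atp1b1, Atp1b2 and Atp1b3, which were 6 of the 36172 gene rows of the table, taken by symbol. The set was selected on the measured level of Fxyd1, which had the largest rise from the negative to the positive fraction of the Aldh1l1-NuTRAP mice among genes with more than 20 counts in all 6 libraries, so every value that compares Aldh1l1-NuTRAP libraries is a description of the members and carries no test. All 6 had more than 20 counts in every library of each group and passed the filter on low counts in each comparison.

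Na,K-ATPase moves sodium out of the cell and potassium into it against their gradients, using ATP. Its catalytic α subunit needs a β subunit, a glycoprotein that brings the pump to the plasma membrane and shapes its handling of potassium, and a small single-pass FXYD protein can bind beside them and tune the affinity for its ions. In brain, neurons use the pump to restore ion gradients after firing, and astrocytes use it to clear extracellular potassium and to power sodium-coupled uptake of glutamate and GABA.

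NuTRAP mice carry a floxed allele that, after Cre recombination, tags ribosomes with EGFP (EGFP-L10a), so that RNA on the ribosomes of 1 cell type can be pulled down from a brain homogenate with antibodies to GFP. Cre came from an inducible Cre/Ert2 allele under the Aldh1l1 promoter, used for astrocytes, or under the Cx3cr1 promoter, used for microglia and also active in other brain macrophages. All mice were Cre-positive and NuTRAP-positive, were about 3 months old and were given tamoxifen, the controls for each fraction being other fractions of the same brains. The bead-bound RNA is the positive fraction, the unbound RNA the negative fraction, and the centrifuged homogenate (its supernatant) before the pull-down the input, while whole tissue RNA came from a conventional isolation. There were 3 positive and 3 negative libraries of Aldh1l1-NuTRAP mice 290, 293 and 294. From Cx3cr1-NuTRAP mice 155, 192, 194, 209, 210 and 277 there were 6 input, 6 negative and 6 positive libraries, and 5 whole tissue libraries (all but mouse 155). For the Aldh1l1 line, input and whole tissue were not analysed here. Levels are given as counts per 1000000 counts of the library (CPM), and values in a list follow the mice in the order above.

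Total counts ranged from 4260949 to 26857866 per library, and the lowest estimated count of any member in any library was 171 (Fxyd1, whole tissue of mouse 210). The shallower libraries of mouse 290 (8782235 and 11910851), the whole tissue of mouse 210 (4260949), the negative fraction of mouse 155 and the positive fraction of mouse 194 correlated least with the others of their groups, and results that rest on them are also given without them. The pull-downs were checked against cell type markers. All 5 astrocyte markers were higher in the Aldh1l1 positive than in its negative fraction, with a summed level of 6108 to 8076 against 1017 to 1096 CPM. All 7 microglial markers were higher in the Cx3cr1 positive fraction than in the input, with a sum of 2046 to 4975 against 244 to 261 CPM. Neuronal markers were still present in the Cx3cr1 positive fraction, with a sum of 3741 to 6102 CPM against 5656 to 5913 CPM in the input. In such RNA a lower level can come from fewer cells of a type or from less RNA in each cell, and these cannot be told apart.

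The members lie on 4 chromosomes of mm10 (GENCODE coordinates). Fxyd1 (Entrez 56188; chr7:31051678-31057199) and Fxyd7 (57780; chr7:31042513-31051467) are adjacent on the minus strand. Fxyd6 (59095) lies at chr9:45370185-45396159 on the plus strand. The β subunit genes are all on minus strands, Atp1b1 (11931) at chr1:164437109-164458355, Atp1b2 (11932) at chr11:69599736-69605942 and Atp1b3 (11933) at chr9:96332655-96364442. Promoter sequences from RefSeq (GRCm38.p6) were found for Fxyd1, Fxyd6, Atp1b1 and Atp1b3, the last with 2 start sites. The 250 bases upstream of the start are shown for Fxyd1 and Atp1b1, the members with the largest difference in opposite directions between the Aldh1l1 fractions. Both are read 5′ to 3′ on the minus strand, with CG dinucleotides in capitals.
Fxyd1, chr7:31054854-31055103: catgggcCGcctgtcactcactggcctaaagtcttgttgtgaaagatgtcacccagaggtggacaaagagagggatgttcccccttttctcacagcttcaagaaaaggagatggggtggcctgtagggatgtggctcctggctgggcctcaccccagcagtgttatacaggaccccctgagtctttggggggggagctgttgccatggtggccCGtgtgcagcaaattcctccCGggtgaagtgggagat
Atp1b1, chr1:164458356-164458605: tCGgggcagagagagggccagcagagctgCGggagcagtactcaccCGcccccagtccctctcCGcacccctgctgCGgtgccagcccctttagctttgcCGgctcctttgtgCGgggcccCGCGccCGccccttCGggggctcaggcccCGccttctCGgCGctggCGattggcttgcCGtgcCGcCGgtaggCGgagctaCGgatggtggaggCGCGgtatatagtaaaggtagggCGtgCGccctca
The Fxyd1 window held 3 CG dinucleotides at 57.2% GC, and 37.8% of the 32817 windows of this length held as few or fewer. The Atp1b1 window held 24 CG at 70.4% GC, with as few or fewer in 89.3% of windows. The Fxyd6 window held 5, and the 2 Atp1b3 windows 35 and 24, against a median of 6. The whole Fxyd1 window lies inside the longer GENCODE gene, overlapping no annotated exon, so GENCODE also annotates a start further upstream. The span given for Fxyd1 with the deposited counts also begins upstream of the window, at 31055656. Next, 3 motifs were searched on both strands, none of which overlaps another. The TATA box TATAAA was in neither window (12.4% of all windows held it). The motif CCAAT occurred 1 time in the Atp1b1 window and not in that of Fxyd1 (33.8% of windows). The GC box GGGCGG occurred 2 times in the Atp1b1 window and not in that of Fxyd1 (32.7% of windows). These counts describe the letters only.

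Fxyd1, or phospholemman, is the FXYD protein known best as a phosphorylated regulator of the pump in heart and muscle. In the positive fraction of mice 290, 293 and 294 it stood at 609.7, 295 and 326 CPM, and in their negative fraction at 30.8, 21.5 and 26.1 CPM. Every positive library lay far above every negative library. The means were 410.0 ± 174 and 26.1 ± 4.68 CPM (SD, n = 3), and the fitted log2 fold change was 4.32 (SE 0.36). Mouse 290 had the highest level, and without it the log2 fold change was 4.02. This is the contrast that chose the set. Fxyd1 ranked 1 of the 12126 genes with more than 20 counts in all 6 Aldh1l1 libraries, ahead of Kcne1l (4.22) and Slc25a34 (4.16), and 4 of all 13319 genes tested.

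In the Cx3cr1-NuTRAP mice the level of Fxyd1 was of the order of the Aldh1l1 negative fraction. It was 45.4, 35.4, 28.2, 29.9, 31.0 and 26 CPM in the input, 52.8, 38.5, 36.9, 36.8, 38.3 and 35.5 CPM in the negative fraction and 26.9, 39.3, 20.2, 35.3, 39.3 and 34.9 CPM in the positive fraction. In whole tissue, mice 192 to 277 gave 23.3, 23.8, 27.8, 40.2 and 26.9 CPM. Ordered by mean, Fxyd1 was highest in the Aldh1l1 positive fraction, then in the Cx3cr1 negative fraction (39.8 ± 6.46), the input (32.7 ± 7.0), the Cx3cr1 positive fraction (32.6 ± 7.60), whole tissue (28.4 ± 6.85) and the Aldh1l1 negative fraction (26.1 ± 4.68). Between neighbours in this order, only those of the first step did not overlap. The log2 difference between the positive fractions of the 2 lines was 3.98 (SE 0.26), and the log2 ratio of positive to negative was higher by 4.55 (SE 0.34) in the Aldh1l1 line, both given without a test.

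Markers of the choroid plexus, an epithelium that makes cerebrospinal fluid, moved with Fxyd1 in the Aldh1l1 fractions. All 6 of 6 were higher in the positive fraction, with a sum of 2925 to 3378 CPM against 489.8 to 640.3 CPM, and Ttr (transthyretin) alone had a log2 fold change of 2.85. Of 4 ependymal markers, 3 were tested and 2 were higher, with a sum of 41.5 to 54.2 against 17.6 to 30.2 CPM. Of 4 pericyte and smooth muscle markers, 3 were tested and 1 was higher, Pdgfrb (1.62, adjusted p = 0.000188), and their sum was 48.2 to 65.0 against 29.2 to 46.1 CPM, with Acta2, the smooth muscle actin, listed at 0 in all 29 libraries. Choroid plexus markers summed to 836 to 1005 CPM in the Cx3cr1 input and to 922 to 1398 CPM in the Cx3cr1 negative fraction, both above the Aldh1l1 negative fraction. Fxyd1 in the input overlapped the Aldh1l1 negative fraction, whereas in the Cx3cr1 negative fraction (35.5 to 52.8 CPM) it lay above the Aldh1l1 negative fraction (21.5 to 30.8 CPM) with no overlap. Their part in the Fxyd1 level was not tested.

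Fxyd7, a brain FXYD protein known from neurons, had the opposite pattern. Its levels were 36.1, 18.2 and 25 CPM in the Aldh1l1 positive fraction and 71.6, 60.2 and 55.8 CPM in the negative fraction, with no overlap. The fitted log2 fold change was −0.90 (SE 0.27), and it lay between −1.11 and −0.71 when 1 mouse was left out. Across the 6 groups its mean ran from 62.5 CPM in the Aldh1l1 negative to 26.4 CPM in the Aldh1l1 positive fraction, and each group overlapped the next in that order.

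Fxyd6, or phosphohippolin, first described in hippocampus, was at 142, 141 and 129 CPM in the Aldh1l1 positive and 183, 139 and 127 CPM in the negative fraction. The groups overlapped, and the log2 fold change was 0.22 (SE 0.19). Its mean level stayed between 122 and 149 CPM over all 6 groups, with every neighbour in that order overlapping. The sign of this small difference depended on the scaling. Scaled by total counts alone it was −0.12, since TMM factors were 0.867 to 0.903 in the positive and 1.10 to 1.14 in the negative libraries. That choice moved the median of all genes from 0.04 to −0.31, and relative to the median Fxyd6 was at 0.18 and 0.19.

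**Figure D1:**
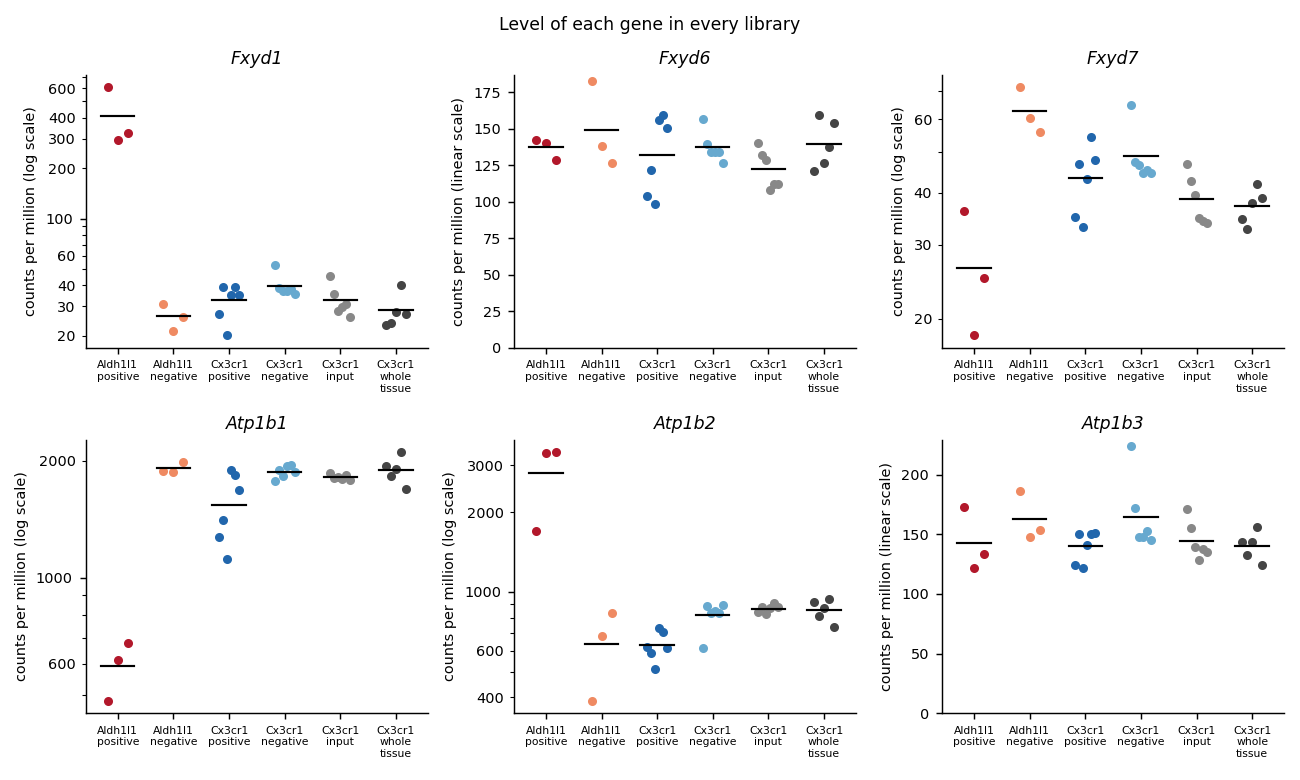
Level of each gene in each of the 29 libraries, in CPM, by group; points are libraries and black lines group means, on a log axis except for Fxyd6 and Atp1b3, whose axes are linear from 0. The 3 Aldh1l1 positive libraries stand above all others for Fxyd1 (295 CPM or more) and Atp1b2 (1696 CPM or more) and below all others for Atp1b1 (679 CPM or less).

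Among the β subunits, Atp1b2 and Atp1b1 moved in opposite directions in the Aldh1l1 fractions. Atp1b2 encodes β2, also called the adhesion molecule on glia. It was at 1696, 3336 and 3366 CPM in the positive and 389, 680.1 and 833 CPM in the negative fraction. The groups did not overlap, and the lowest values of both were from mouse 290, so the ratio within a mouse varied less than the levels did. The log2 ratio within a mouse was 2.14 ± 0.14 (SD, n = 3) on the CPM scale, and the fitted log2 fold change was 2.49 (SE 0.35), or 2.37 to 2.57 with 1 mouse left out. Over all 6 groups, the Aldh1l1 positive mean of 2799 ± 956 CPM was followed by the input (866 ± 30.6), whole tissue (857 ± 83.8), the Cx3cr1 negative fraction (817 ± 102), the Aldh1l1 negative fraction (634 ± 225) and the Cx3cr1 positive fraction (629 ± 79.1).

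Atp1b1 encodes β1, the most widely expressed β subunit. It was at 483, 616 and 679 CPM in the Aldh1l1 positive fraction and 1883, 1866 and 1981 CPM in the negative fraction, again with no overlap. The fitted log2 fold change was −1.35 (SE 0.16), or −1.42 to −1.26 with 1 mouse left out. From the Aldh1l1 negative fraction (1910 ± 62.0 CPM) to the Cx3cr1 input (1816 ± 29.6) the group means lay close together, the Cx3cr1 positive fraction was lower and more spread (1536 ± 316), and only the Aldh1l1 positive fraction (593 ± 100) was separate from its neighbour in the order.

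Neuronal markers moved with Fxyd7 and Atp1b1 in the Aldh1l1 fractions. All 5 were lower in the positive fraction, with a median log2 fold change of −1.75 and a sum of 1151 to 1527 against 5256 to 6168 CPM. So were all 5 oligodendrocyte markers, with a median of −2.77 and a sum of 400.4 to 449 against 3053 to 3297 CPM, and all 7 microglial markers, with a median of −2.37. Their part in the lower levels of Fxyd7 and Atp1b1 was not tested.

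Atp1b3, the β3 subunit, was at 173, 122 and 133 CPM in the Aldh1l1 positive and 187, 148 and 154 CPM in the negative fraction. These groups overlapped, although in CPM the positive fraction was lower in 3 of 3 mice (log2 ratio −0.28 to −0.11). The fitted log2 fold change was 0.16 (SE 0.20), or 0.15 (SE 0.10) with the mouse as a block. It was −0.19 when scaled by total counts alone and 0.12 relative to the median of all genes under either scaling. Without mouse 290 it was 0.07. Group means over the series lay between 140 and 165 CPM. Of the 6 members, 4 did not overlap between the Aldh1l1 fractions, 2 higher and 2 lower. Of the 13319 genes tested in that contrast, 63.0% did not overlap in CPM, 21.3% higher and 41.7% lower, and 51.6% were called by edgeR, but the contrast chose the set and nothing is read from the count.

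**Figure D2:**
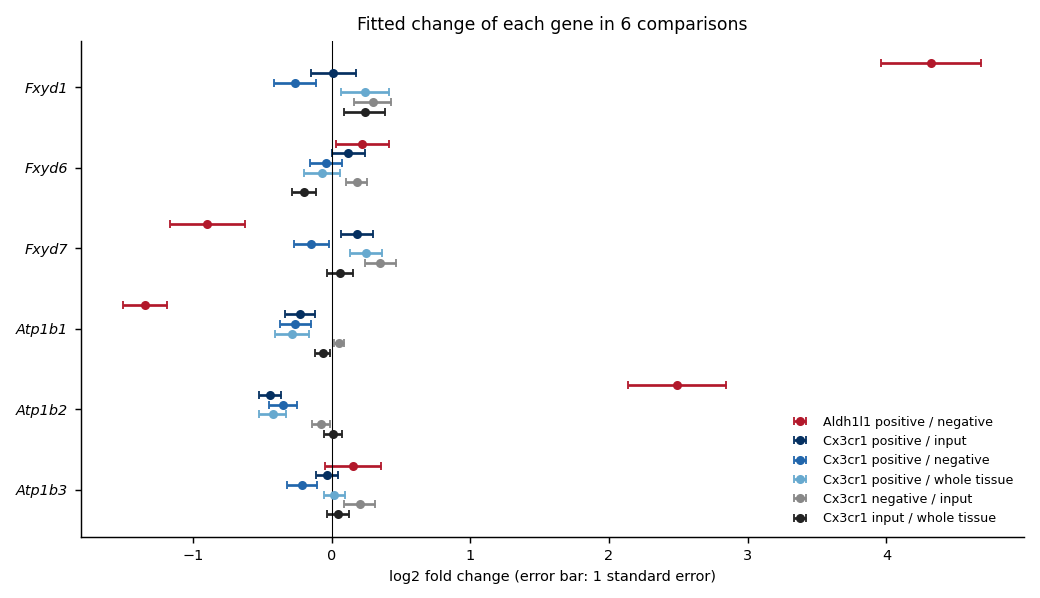
Fitted log2 fold change of each gene in 6 comparisons; points are edgeR estimates, bars 1 standard error. Fxyd1 (4.32) and Atp1b2 (2.49) lie far to the right in the Aldh1l1 comparison, and all estimates from the Cx3cr1-NuTRAP mice lie between −0.45 and 0.35.

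The Cx3cr1-NuTRAP libraries did not take part in choosing the set and were tested with edgeR's quasi-likelihood test, with p adjusted over all genes. Atp1b2 was the member that fell in the Cx3cr1 positive fraction. It was at 622, 586, 514, 728, 708 and 615 CPM in the positive fraction and 837, 876, 826, 867, 910 and 880 CPM in the input, lower in 6 of 6 mice with no overlap. The log2 fold change was −0.45 (SE 0.08, adjusted p = 0.000372). It was the 1 member called of 6, where 48.9% of all 13838 genes tested were called. Atp1b1 was lower by a log2 change of −0.23 (SE 0.11, adjusted p = 0.0937), which did not pass. The other 4 had log2 fold changes between −0.03 (Atp1b3) and 0.18 (Fxyd7), with adjusted p from 0.206 to 0.955. Fxyd1 was at 0.01 (SE 0.16) here.

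Against the negative fraction of the same brains, which held 615, 885, 835, 846, 832 and 890 CPM of Atp1b2, the gene was lower in 5 of 6 mice, and the groups overlapped through the negative library of mouse 155. The log2 fold change was −0.35 (SE 0.10, adjusted p = 0.0224). With the mouse as a block it was −0.35 (adjusted p = 0.0552) and the call was lost, as it was without mouse 192 (0.129), 194 (0.0767) or 277 (0.0899). Again 1 of 6 members was called, against 24.3% of 13776 genes, or 17.3% with the block, where no member was called by edgeR and 2 had an unadjusted p under 0.05. Atp1b1 was lower in 6 of 6 mice by a log2 change of −0.26 (adjusted p = 0.102). Fxyd1 (−0.26), Atp1b3 (−0.21), Fxyd7 (−0.15) and Fxyd6 (−0.04) did not pass either, with adjusted p from 0.173 to 0.846.

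Against whole tissue, where Atp1b2 stood at 919.9, 812, 873, 943 and 737 CPM in mice 192 to 277, it was lower in 5 of 5 mice. The log2 fold change was −0.43 (SE 0.10, adjusted p = 0.00321), 1 member called of 6 against 51.8% of 13470 genes. Fxyd7 was higher in 5 of 5 mice. Its log2 fold change was 0.25 (adjusted p = 0.0926), and with the mouse as a block 0.28 (adjusted p = 0.0399), so that 2 members then passed, against 43.2% of all genes. Atp1b1 was at −0.29 (adjusted p = 0.0714) and passed with DESeq2 (0.0325), which called 53.9% of all genes. These 3 comparisons share the 6 positive libraries and are not independent of each other.

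Astrocyte markers also fell in the Cx3cr1 positive fraction, 4 of 5 against the input, with a sum of 703 to 1054 CPM against 1350 to 1552 CPM. Other cell types moved too. Oligodendrocyte markers fell in 4 of 5 (median log2 fold change −0.63), with a sum of 696 to 1554 against 2283 to 2581 CPM. Choroid plexus markers fell in 3 of 6 (median −0.58), with a sum of 219 to 1044 against 836 to 1005 CPM. Markers of oligodendrocyte precursors fell in 2 of 3, of pericytes and smooth muscle in 2 of 3 and of neurons in 1 of 5, while 2 of 4 endothelial markers rose. Against the negative fraction 4 of 5 astrocyte and 4 of 5 oligodendrocyte markers fell, and against whole tissue 5 of 5 of each. The part of these markers in the Atp1b2 differences was not tested. Within the 6 positive libraries the level of Atp1b2 fell as the summed microglial markers rose, with Pearson r = −0.917 (exact permutation p = 0.00278, two-sided, adjusted over the 6 members 0.0167) and Spearman rho = −0.943 (exact permutation p = 0.0167, adjusted 0.05). Without the 2 libraries farthest from the median of the marker sum, r was −0.940. For Atp1b1, r was −0.837 (exact permutation p = 0.00694, adjusted 0.0208) with rho = −0.943, and −0.730 without the 2 farthest. For Fxyd6, r was −0.768 (exact permutation p = 0.0181, adjusted 0.0361), rho −0.886 (exact permutation, adjusted 0.0667) and r without the 2 farthest −0.654. Fxyd1 (r = −0.750), Fxyd7 (−0.610) and Atp1b3 (−0.589) did not pass by exact permutation after adjustment. The r of Fxyd1 rested on the 2 farthest libraries, being −0.04 without them. Other cell types ran the same way. Neuronal and astrocyte sums were 6102 and 1036 CPM in mouse 209, where the microglial sum was 2046 CPM. They were 3741 and 703 CPM in mouse 194, where it was 4975 CPM. The share of all genes with such a correlation is not given, so nothing particular to the members is read from these values.

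The negative fraction and the input of the Cx3cr1-NuTRAP mice differed little, but in the same direction in every mouse for 4 members. Fxyd7 was at 64.6, 47.3, 46.5, 44.5, 45.4 and 44.6 CPM in the negative fraction and 46.7, 42.7, 39.5, 34.7, 34.2 and 33.8 CPM in the input. Fxyd1 (values above), Fxyd6 and Atp1b3 were likewise higher in the negative fraction of all 6 mice, although for each gene the 2 groups overlapped. The share of all genes that were higher in 6 of 6 mice is not given, so nothing is read from this count. Without the block, 0 of 6 members were called by edgeR, against 6.11% of 13748 genes. Of these 3 had an unadjusted p under 0.05 (Fxyd1, Fxyd6 and Fxyd7), and DESeq2 called 1, Fxyd7 (adjusted p = 0.0288), against 14.9% of all genes. With the mouse as a block, 4 of 6 were called, against 37.2% of all genes: Fxyd7 by a log2 change of 0.35 (adjusted p = 0.000285), Fxyd1 by 0.30 (0.000594), Fxyd6 by 0.18 (0.00278) and Atp1b3 by 0.19 (0.00554). Atp1b1 was at 0.05 (adjusted p = 0.117) and Atp1b2 at −0.09 (0.158). The negative library of mouse 155 was the highest of its group for Fxyd1, Fxyd6, Fxyd7 and Atp1b3 and the lowest for Atp1b1 and Atp1b2. Without that mouse and without the block, Fxyd7 (adjusted p = 0.00168), Fxyd1 (0.00275) and Fxyd6 (0.0172) passed, where 27.6% of all genes did, against 0 to 3 genes without any other 1 mouse. Choroid plexus markers moved in the same direction, their sum being higher in the negative fraction of 6 of 6 mice by a log2 ratio of 0.14 to 0.48, although 0 of the 6 genes were called by edgeR without the block. Ttr alone was higher in 6 of 6 mice, with a mean log2 ratio of 0.32. The neuronal and the ependymal sums were each higher in 5 of 6 mice, and 1 of 5 neuronal markers was called, Rbfox3 (0.24, adjusted p = 0.0435). Those of astrocyte markers and of pericyte and smooth muscle markers were lower in 6 of 6, and 1 of 7 microglial markers was called lower. Their part in these differences was not tested.

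**Figure D3:**
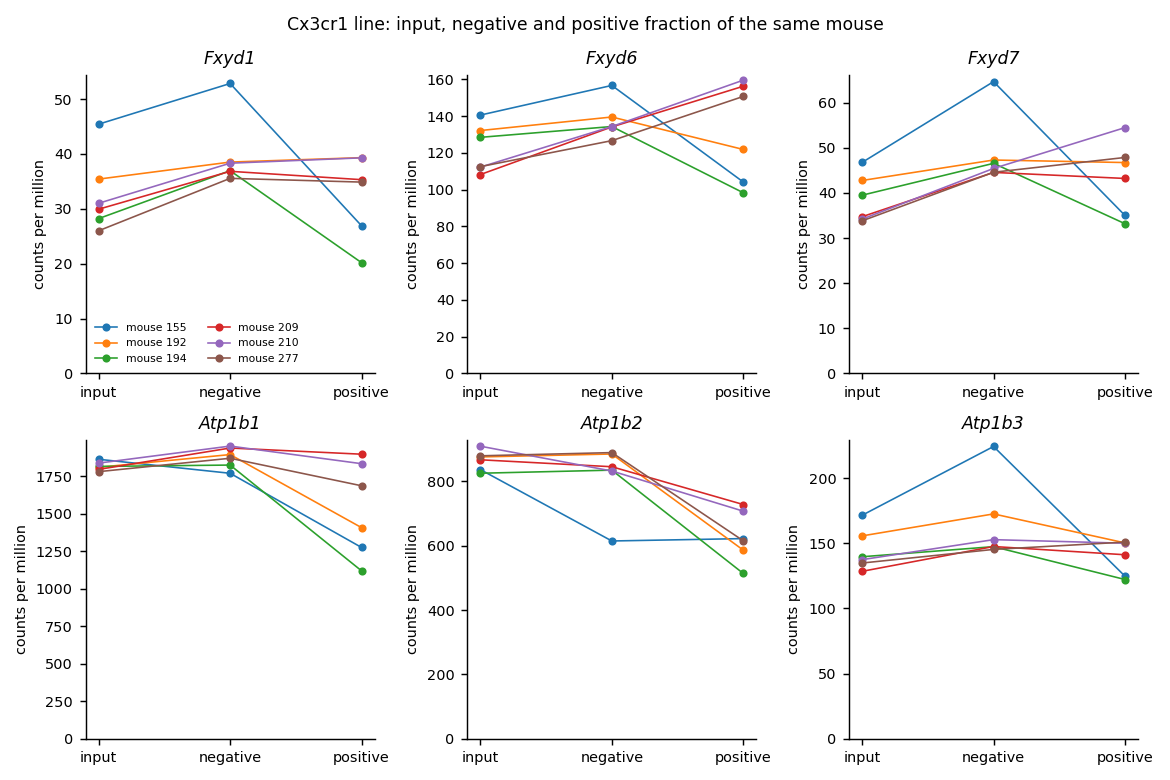
Level of each gene in the input, negative and positive fraction of the 6 Cx3cr1-NuTRAP mice, in CPM on linear axes from 0; each line joins the libraries of 1 mouse. Fxyd1, Fxyd6, Fxyd7 and Atp1b3 are higher in the negative fraction than in the input in 6 of 6 mice, and Atp1b2 falls from input to positive fraction in 6 of 6.

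Input RNA came from the supernatant of a centrifuged homogenate and whole tissue RNA from a conventional isolation. No member of 6 was called between them by edgeR or DESeq2, against 30.5% of 13608 genes by edgeR. At an unadjusted p under 0.05 there was 1 in either tool, Fxyd6. Its log2 fold change was at −0.20 (adjusted p = 0.0972), Fxyd1 at 0.24 (0.249), and the 3 β subunits between −0.07 and 0.04. Without mouse 210, whose whole tissue library is the shallowest and holds the highest Fxyd1 of its group, Fxyd1 was at 0.37 (adjusted p = 0.0494), where 38.7% of all genes were called. Without mouse 155, Fxyd6 was at −0.24 (adjusted p = 0.0492), where 31.3% of all genes were called. Cell type markers also differed between input and whole tissue. Choroid plexus markers were higher in the input for 3 of 6 (median log2 fold change 0.82), with a sum of 836 to 1005 against 199 to 984 CPM, and neuronal markers for 2 of 5. Lower in the input were 4 of 4 endothelial markers (median −1.33), 3 of 3 tested of pericytes and smooth muscle (−0.78), 2 of 2 tested ependymal markers (−0.99), 4 of 5 of oligodendrocytes (−0.40), 2 of 3 of their precursors and 1 of 5 of astrocytes. Their part in the values of Fxyd1 and Fxyd6 was not tested.

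Other genes of the pump were taken as a list of 9, the remaining β subunit and FXYD proteins and the Nkain membrane proteins that interact with the pump. In the Aldh1l1 fractions 5 were tested, of which 1 rose, 2 fell and 2 did not pass. The median log2 fold change was −0.82 against 0.04 over all genes, of which 26.8% rose and 24.8% fell. Nkain4 rose by a log2 fold change of 3.14 (SE 0.21, adjusted p = 5.60e-05). Nkain2 (−1.40, adjusted p = 0.000358) and Nkain1 (−0.82, 0.0143) fell, the latter not past the threshold without mouse 293 or 294 (adjusted p up to 0.142). Fxyd2, the γ subunit of kidney, was at −1.02 (adjusted p = 0.0604) and Fxyd5, or dysadherin, at −0.68 (0.0980). Both passed with the mouse as a block (0.0168 and 0.0484), where 33.8% of all genes were called lower. Without mouse 290 both passed too (0.0451 and 0.00382), and DESeq2 called Fxyd2 (0.0362). The shares of all genes called in those 2 settings are not given, and nothing is read from these calls. Fxyd5 ran from −1.09 without mouse 290 to −0.37 without mouse 293 (adjusted p = 0.554), and Fxyd2 had an adjusted p of up to 0.212 without mouse 293 or 294. Atp1b4, Fxyd3, Fxyd4 and Nkain3 were too low to be tested.

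In the Cx3cr1 positive fraction against the input, 4 of the list were tested. Fxyd5 rose by a log2 fold change of 1.19 (SE 0.21, adjusted p = 0.000335) and Nkain2 fell by 0.68 on the log2 scale. The median was −0.067 against −0.0027 for all genes, of which 23.3% rose and 25.6% fell. Against the negative fraction, Fxyd5 rose by 0.90 and 1 of 5 fell, Nkain2 (−0.59), where 12.8% of all genes rose and 11.6% fell. Against whole tissue 1 rose, Fxyd5 by 0.99, and 2 of 4 fell, Nkain2 (−0.66) and Nkain4 (−0.52), where 27.5% of all genes rose and 24.3% fell. Fxyd5 (adjusted p = 0.0733) and Nkain4 (0.0576) were then lost with the block. The call of Nkain4 was also lost without mouse 155, 192, 209 or 277, with adjusted p up to 0.118. Between negative fraction and input 0 of 5 were called by edgeR, with 3 at an unadjusted p under 0.05 and 1 called by DESeq2. The tools called 6.11% and 14.9% of all genes. With the mouse as a block, where 37.2% of all genes were called, Fxyd2 (0.60, adjusted p = 0.0418), Fxyd5 (0.32, 0.0252) and Nkain4 (0.22, 0.00681) were higher in the negative fraction. Nkain4 (−0.34) and Nkain1 (−0.21) were lower in the input than in whole tissue, where 16.3% of all genes were higher and 14.2% lower in the input. Nkain4 did not pass there without mouse 194, 209 or 277 (adjusted p up to 0.143) and Nkain1 not without mouse 209 (0.0555).

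Levels of different genes were compared per kilobase of annotated exon, as shares of their family in each library. In the Aldh1l1 positive fraction Atp1b2 made up 71.9% ± 6.6 of the 3 β subunits and Fxyd1 71.4% ± 4.2 of the 3 FXYD members (SD, n = 3). In the negative fraction Atp1b1 was the leading β subunit with 73.7% ± 3.8 and Fxyd7 the leading FXYD member with 65.2% ± 1.4. The Cx3cr1 input resembled the latter, with 68.4% Atp1b1, 24.6% Atp1b2 and 7.02% Atp1b3, and 55.5% Fxyd7, 29.8% Fxyd6 and 14.8% Fxyd1. The Cx3cr1 positive fraction held 69.8% Atp1b1 and 57.2% Fxyd7.

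The order among the FXYD members depended on the gene length used. With the longest coding transcript, 620 bases for Fxyd1 in place of 2186 bases of exon, the input held 38.8% Fxyd6, 31.5% Fxyd7 and 29.6% Fxyd1, while Fxyd1 still led the Aldh1l1 positive fraction with 84.3%. Fxyd6 then also led Fxyd7 in the Cx3cr1 negative fraction (36.5% against 33.2%), the Cx3cr1 positive fraction (39.0% against 33.3%) and whole tissue (44.1% against 30.3%), and Fxyd7 led in the Aldh1l1 negative fraction (41.9% against 38.5%). The β subunit order stayed the same in all 6 groups.

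**Figure D4:**
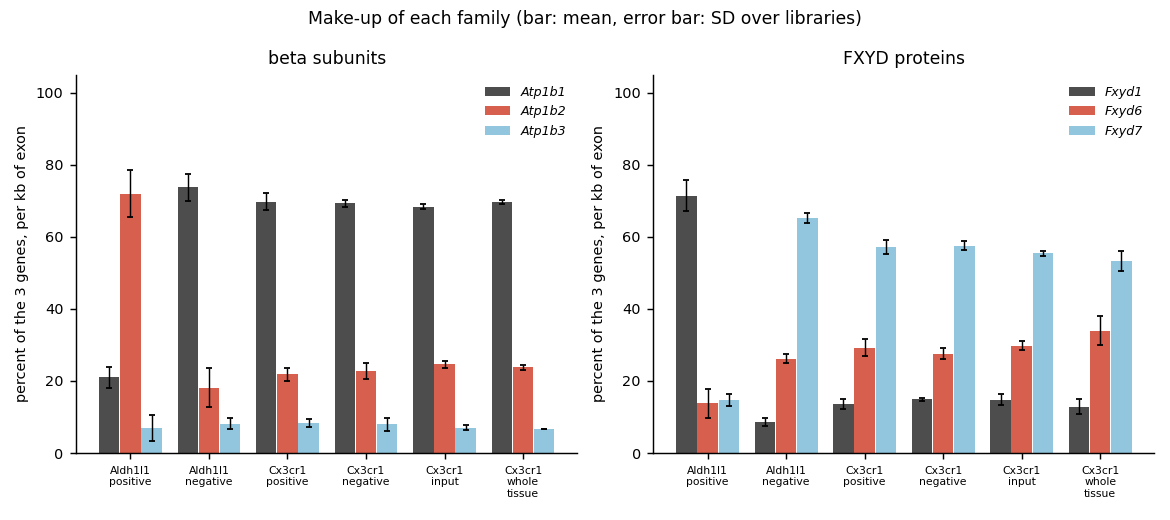
Share of each gene in its family per kilobase of exon, as a percentage of the 3 genes shown, by group; bars are means and error bars SD over the 3 to 6 libraries. Atp1b2 (71.9%) and Fxyd1 (71.4%) lead in the Aldh1l1 positive fraction, and Atp1b1 and Fxyd7 lead in the other 5 groups, although with the longest coding transcript as the length Fxyd6 leads Fxyd7 in the 4 Cx3cr1 groups.

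Fxyd1 and Fxyd7 are next to each other, 210 bases apart on the same strand, and still had opposite signs in the Aldh1l1 fractions. On the other side of Fxyd7, 31 bases away, lies Fxyd5, at −0.68. On the other side of Fxyd1, 2142 bases away on the opposite strand, lies Lgi4, which encodes a secreted glial protein needed for peripheral myelination. Lgi4 was at 331 ± 21.6 CPM in the positive and 47.3 ± 7.36 CPM in the negative fraction and rose by a log2 fold change of 3.15 (SE 0.18, adjusted p = 4.51e-05), in 3 of 3 mice. In the Cx3cr1 positive fraction Lgi4 fell by 0.29 on the log2 scale against the input (adjusted p = 0.00549). The libraries kept strand and were aligned by strand.

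**Figure D5:**
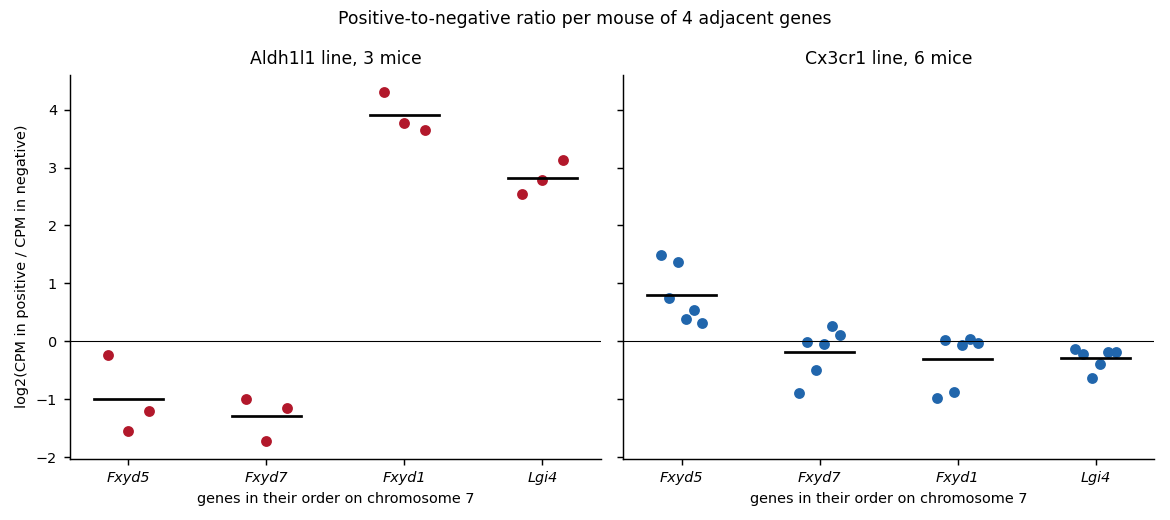
Log2 ratio of CPM in the positive to the negative fraction of each mouse for 4 neighbouring genes in their order on chromosome 7; points are mice and black lines means. In the Aldh1l1-NuTRAP mice Fxyd1 and Lgi4 lie above 2.5 and Fxyd7 and Fxyd5 below 0 in 3 of 3 mice.

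The other members also had neighbours within 30 kb. Nme7, of the nucleoside diphosphate kinase family, shares exon positions with the end of Atp1b1 on the opposite strand. It rose in the Aldh1l1 positive fraction by a log2 fold change of 1.53 (SE 0.22, adjusted p = 0.00117), opposite to Atp1b1. Of 7 genes of the table near Atp1b2, 4 were tested. Sat2, 16081 bases away, rose by 1.18 (adjusted p = 0.00796, or 0.0712 without mouse 294). Trp53, the tumour suppressor p53, lies 7862 bases away and rose by 0.43 (adjusted p = 0.0440), but did not pass without mouse 293 or 294 (up to 0.305). Wrap53 (0.22, adjusted p = 0.548) and Fxr2 (0.16, 0.517) did not pass, although without mouse 290 Wrap53 was at 0.46 and passed (0.0343). Fxyd2, at −1.02, lies 3509 bases from Fxyd6. Tfdp2, 9008 bases from Atp1b3, was at 0.08 (adjusted p = 0.785).

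The genes whose log2 CPM ran most like that of each member over the 29 libraries were found among 14109 genes. These are descriptions, since libraries of 1 mouse are related and the 3 Aldh1l1 positive libraries set most of the spread of some members. Nearest to Fxyd1 were Prdx6 (Pearson r = 0.987), Lxn (0.985) and Mt2 (0.984). For Atp1b2 they were Spire1 (0.983), Slc41a1 (0.979) and Cntfr (0.978), and for Atp1b1 Elavl4 (0.987), Elmod1 (0.983) and Faim2 (0.982). Fxyd7 ran nearest to Ap1s1 (0.954), Otub1 (0.933) and Ttc9b (0.930), and Atp1b3 to Sarnp (0.916), Mob4 (0.901) and Taf3 (0.894). Fxyd6 had the lowest values, with Blcap (0.851), Tubb2a (0.847) and Rpn1 (0.819). Among the members themselves, the strongest r in either direction were those of Fxyd1 with Atp1b1 (−0.869) and with Atp1b2 (0.805). Next were those of Fxyd7 with Atp1b2 (−0.735) and with Atp1b3 (0.712).

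The other lists give the setting of the pump. Of 14 genes of other P-type pumps, which move calcium, copper or protons with ATP, 8 were tested in the Aldh1l1 fractions. By edgeR 0 rose, with 1 at an unadjusted p under 0.05 that DESeq2 called, and 3 fell, the plasma membrane calcium pumps Atp2b2 (−1.49), Atp2b4 (−1.38) and Atp2b1 (−1.35). Over all genes 26.8% rose and 24.8% fell. With the mouse as a block 1 rose and 6 fell, against 37.0% and 33.8% of all genes, and without mouse 293 or 294 Atp2b4 did not pass (adjusted p up to 0.0973). Of 27 carriers driven by the sodium gradient, 12 rose and 11 fell, with a median of −0.41 against 0.04 for all genes. The largest rises were of Slc6a11 (3.31), a GABA transporter, Slc38a3 (3.06), a glutamine transporter, and Slc1a3 (2.90), a glutamate transporter of astrocytes. The largest falls were of Slc5a7 (−2.13), the choline transporter of cholinergic neurons, and of the sodium-calcium exchangers Slc8a2 (−2.06) and Slc8a1 (−1.94). In the Cx3cr1 positive fraction against the input, 0 rose by edgeR, by DESeq2 or at an unadjusted p under 0.05, and 7 of 10 pumps and 21 of 27 carriers fell, led by Atp2b3 (−1.16), Atp2a2 (−0.78) and Atp2b2 (−0.66), and by Slc5a7 (−1.21), Slc4a4 (−1.09) and Slc6a11 (−0.79). Medians were −0.32 and −0.39 against −0.0027 for all genes, of which 23.3% rose and 25.6% fell.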

How the data were processed

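TRAP-RNAseq was analysed from 29 libraries of 2 NuTRAP lines, grouped by the line, fraction and mouse in their labels. Reads were trimmed and aligned by strand to mm10 by the authors, who used Strand NGS with RefSeq annotation. The deposited raw columns are expected counts per gene, without normalization, of which 82.4% of the nonzero values were not whole (tolerance 1e-06). The deposited log2 columns, which the authors made by DESeq normalization, were not used. Of the 36172 rows, 14057 were at 0 in every library.

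Counts were rounded to whole numbers, scaled by TMM and tested in edgeR 4.0.16 under R 4.3.3 by quasi-likelihood, with Benjamini-Hochberg adjustment over all genes and a threshold of 0.05. A gene entered a test when all libraries of 1 or more of the groups compared had over 20 counts. Only the groups compared entered a fit. The script was tested on simulated data. DESeq2 1.42.0, other scalings, no filter, all groups in 1 fit, the mouse as a block and leaving out each mouse were alternatives. Standard errors were taken from the fold change and the F statistic. A CPM is a count per 1000000 of the library's total count, from 4260949 to 26857866, so that precision at low counts differs between libraries.

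Libraries with 1 mouse number came from 1 animal, which pairs them. Deviations from group means correlated above 0.1 in 3 of 3 Aldh1l1 pairs (0.44 to 0.65), in 5 of 6 Cx3cr1 pairs of negative with input, in 3 of 6 of positive with either, and in 0 of 5 involving whole tissue. Other libraries of a group are separate mice. The sex of each mouse was not used.

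The 6 members and all lists were chosen with earlier results of these data known. Named genes were the members, the 3 genes nearest to each by Pearson r of log2 CPM (prior count 2), annotated genes overlapping a member or within 30 kb of one, other pump and FXYD genes (some of the list are not reported here), and the 3 largest called rises and falls of the other lists. Gene positions and exon lengths are from GENCODE M21 and promoters from RefSeq. Figures and summaries used Python 3.11.15, numpy 2.4.6, pandas 2.3.3, scipy 1.17.1 and matplotlib 3.10.9.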

Additional observations from a re-analysis of the deposited data

Results flagged for a closer look

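Among 24 combinations of member and group with 5 or 6 libraries, 5 had a highest or lowest library far from the rest of its group by Dixon's criterion, which chance gives in about 1 of 20. The negative fraction of mouse 155 accounted for 4 of them, at 52.8 CPM for Fxyd1, 64.6 CPM for Fxyd7 and 224 CPM for Atp1b3, each the highest of 6, and at 615 CPM for Atp1b2, the lowest of 6. The fifth was the whole tissue of mouse 210, the shallowest library, at 40.2 CPM for Fxyd1.

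The log2 ratio of positive to negative fraction differed between the 2 lines, by the interaction term in edgeR, for 4 of the 5 pump genes tested outside the chosen set, against 55.4% of all 13983 genes tested. It was larger in the Aldh1l1 line for Nkain4 by 3.49 (adjusted p = 1.84e-08). The difference was −1.65 for Fxyd5 (adjusted p = 0.00106), −0.85 for Nkain1 (0.000956) and −0.85 for Nkain2 (0.000338). Fxyd2 did not pass, at −0.73 (adjusted p = 0.221). For Fxyd5 the single comparisons had opposite signs, −0.68 in the Aldh1l1 and 0.90 in the Cx3cr1 line.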

How the results depend on the processing

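With 3 Aldh1l1-NuTRAP mice and shallow libraries from mouse 290, and with fractions taken from the same brains, small differences are uncertain. In the Cx3cr1-NuTRAP mice Atp1b2 kept its direction and its call against the input (adjusted p at most 0.0130) and against whole tissue (at most 0.0279) under each of the 12 alternatives. Counts for the members cover the tested Cx3cr1 comparisons and the untested comparison of the Aldh1l1 fractions. In these, 366 alternative values stayed the same, in direction and side of the threshold where tested, or within the spread where untested. Of the tested values, 23 changed sign, 14 passed newly and 5 no longer passed. Of the untested values, 6 moved by more than the spread. In the untested comparisons between the lines, 5 values moved and 229 did not. The cause of these changes was not tested.

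With the mouse as a block, the calls that changed among members were Atp1b2 against the negative fraction (−0.35, no longer past), Fxyd7 against whole tissue (0.28, past) and, for negative fraction against input, Fxyd7 (0.35), Fxyd1 (0.30), Atp1b3 (0.19) and Fxyd6 (0.18), all past. The block changed no other call of a member. Input against whole tissue, where nothing passed, became −0.0016 for Fxyd7 and −0.0047 for Atp1b3 with the block.

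With all groups in 1 fit, Atp1b2 against the negative fraction was −0.33 and no longer passed, Atp1b1 passed at −0.24 there and at −0.31 against whole tissue, Atp1b2 was −0.020 for input against whole tissue, and Nkain1 was 0.011 for positive against negative. DESeq2 called Atp1b1 against whole tissue (−0.31) and Fxyd7 for negative against input (0.36). Uncalled values near 0 changed sign for Atp1b3 against whole tissue (−0.0058 with DESeq2's size factors and −0.0034 with DESeq2) and Atp1b2 for input against whole tissue (−0.0012 and −0.00074), and for Fxyd1 against the input with total counts (−0.0013). With total counts the Aldh1l1 comparison gave 3.97 for Fxyd1, 2.14 for Atp1b2, −0.12 for Fxyd6, −0.19 for Atp1b3 and −1.69 for Atp1b1.

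The count of genes called between negative fraction and input (840) was 5115 with the block, 2046 with DESeq2, 281 with no filter and 59 with all groups, and between input and whole tissue (4144) it was 2458 with all groups. With 1 mouse left out these were 0 to 3815 and 2549 to 5395. For positive against negative the counts then ran from 1747 to 4273 in the Cx3cr1 line (3352 with all mice) and from 3587 to 9731 in the Aldh1l1 line (6868). Removing mouse 155 gave the highest count between negative fraction and input, and removing mouse 192, 209, 210 or 277 gave 0.

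With 1 mouse left out, log2 changes of the positive fraction against the input ran from −0.062 to 0.17 for Fxyd1 and −0.070 to 0.043 for Atp1b3. Against the negative fraction they ran from −0.10 to 0.060 for Fxyd6, −0.24 to 0.0042 for Fxyd7, −0.42 to −0.29 for Atp1b2, −0.50 to 0.0025 for Fxyd2 and −0.053 to 0.047 for Nkain1. Against whole tissue they ran from −0.16 to 0.053 for Fxyd6 and −0.040 to 0.042 for Atp1b3. For negative against input they were 0.27 to 0.33 for Fxyd1, 0.16 to 0.20 for Fxyd6 and 0.31 to 0.40 for Fxyd7. For input against whole tissue they were 0.13 to 0.37 for Fxyd1, −0.29 to −0.14 for Fxyd6, −0.022 to 0.13 for Fxyd7, −0.047 to 0.029 for Atp1b2 and −0.0045 to 0.094 for Atp1b3. In the Aldh1l1 comparison Atp1b3 ran from 0.069 to 0.20.

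With the longest coding transcript as the length, shares of the FXYD members were 84.3% Fxyd1 and 4.97% Fxyd7 in the Aldh1l1 positive fraction and 29.6% Fxyd1, 38.8% Fxyd6 and 31.5% Fxyd7 in the Cx3cr1 input, and shares of the β subunits in the input 65.1% Atp1b1 and 28.2% Atp1b2. Of 12 lists of nearest genes under Spearman's rho or TMM-scaled CPM, 11 held 1 or more other genes and 6 shared fewer than 2 of 3.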
